A study of Mus musculus with 6 samples.

Results

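The genes described are those of the synaptic vesicle release machinery: synaptotagmins, syntaxins and their binding proteins, VAMP and SNAP proteins, complexins, Unc13 and RIM proteins, synapsins, SV2 proteins, and Napa, Napb and Nsf. They were chosen by symbol, and a level of at least 1 CPM (the standard depth-scaled count, a gene's reads per total gene reads in the library times a constant) in 3 or more libraries was required. Of 32531 genes in the tables, 69 matched the symbols and 62 reached that level. The pattern also takes in Snap91, which encodes the clathrin assembly protein AP180 and is no SNARE. Of the 7 genes left out, Cplx4, Stx11, Stx19, Syt8 and Unc13d stayed under 1 CPM in every library, and Vamp5 reached it in 2, with a highest value of 5.01 CPM. Vamp7 is listed at 0 reads in all 6 libraries, and since the annotation behind the counts is not given in the sources used here, this 0 is not read as a level of expression. Just inside the rule stood Cplx3 and Rims4, and Cplx3 entered only through its 3 Input libraries, so its difference between the groups is in part a product of the rule.

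Ribosome-bound RNA was measured in the thalamus of adult control mice of the Slc17a6-TRAP line JX883, which received no treatment. This line carries EGFP fused to the ribosomal protein Rpl10a under the name of Slc17a6, the vesicular glutamate transporter of thalamic relay neurons, so that tagged polysomes can be pulled down with anti-EGFP antibodies. The immunopurified libraries (IP, replicates 1 to 3) were set against libraries of thalamic Input (replicates 1 to 3), and all 6 came from the same line. Input carries the same molecule label as IP, ribosomal-bound RNA. Whether replicates are separate animals is not stated, and the p-values thus describe only how these libraries vary, which may be technical. Gene reads ran from 52068141 to 54421395 in IP and from 44081149 to 47340321 in Input.

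Transmitter release rests on a complex of 3 kinds of SNARE protein, syntaxin and SNAP25 on the plasma membrane and VAMP on the vesicle, which zipper together and fuse the membranes. Munc18 proteins hold syntaxin ready, Munc13 (the Unc13 genes) and RIM prime vesicles at the active zone, synaptotagmin senses calcium, and complexin clamps and assists the step. NSF and its SNAP adaptors (Napa, Napb) take the spent complexes apart, while synapsins hold the reserve pool. Thalamic relay neurons send glutamatergic axons to cortex, while the transcripts for these terminals come from cell bodies in the thalamus.

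Against defining markers, the thalamic glutamatergic list summed to between 7080 and 11882 CPM in IP and between 2508 and 7672 CPM in Input, with 4 of 9 genes higher. Slc17a6 itself, whose name the line carries, overlapped between the groups and missed the threshold (log2 fold change 1.27 ± 0.68, edgeR adjusted p = 0.206), but passed with the replicate number as a block (edgeR adjusted p = 0.000246). GABAergic markers were lower for 7 of 10 genes, with sums of 133 to 305 CPM in IP against 1068 to 1628 CPM in Input. Astrocyte markers were lower for 8 of 9 (422 to 873 CPM in IP against 1715 to 3270 CPM in Input), oligodendrocyte markers for 9 of 9 (185 to 328 CPM against 3991 to 5726 CPM) and microglial markers for 8 of 9 (2.56 to 5.11 CPM against 60.2 to 91.3 CPM). Endothelial markers were lower for 4 of 8. Of the cortical and hippocampal list 1 gene was higher, of the striatal list 1 was lower and of the hypothalamic list 1 was higher. No marker of these lists was at 0 in all 3 IP libraries. Input replicate 3 stood apart: against Input replicates 1 and 2, its cortical and hippocampal markers stood at a median ratio of 11.5 to their mean, and its striatal markers at 4.11. By the same measure its thalamic glutamatergic markers stood at 0.559 and its hypothalamic markers at 0.164.

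Of the 62 genes, 10 rose and 10 fell in IP relative to Input, and 42 missed the threshold of 0.05 on the adjusted p of edgeR's quasi-likelihood test. Over all 16496 genes tested, 9.6% rose and 15.6% fell, and over the 14011 of them at 1 CPM in 3 libraries, 11.2% rose and 14.9% fell. The members' shares were 16.1% in each direction, so the share that fell was close to the background. Among the genes that rose were Syt17, Syt5, Stx1a, Rims3, Vamp2, Syn2, Napa, Syt16 and Syn1. Those that fell were Cplx3, Vamp8, Snap23, Vamp3, Sv2c, Syt6, Syt2, Stxbp2, Unc13c and Syn3. Cplx3 is a member only through its Input libraries, so its place in this count and in the range below is in part a product of the rule. The members' median log2 fold change was 0.23, against 0.04 over the 14011 tested genes that reach 1 CPM in 3 libraries and -0.04 over all genes tested, and single members ranged from -5.39 to 1.66. With the replicate number as a block, 21 rose (33.9%, against 15.9% of all genes) and 13 fell (21.0%, against 19.2% of all genes), and all 20 calls were among them. IP and Input values did not overlap for 17 genes higher in IP (27.4%, against 19.9% of all genes) and 19 lower in IP (30.6%, against 25% of all genes).

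Of the 20 calls, 10 held in each of the 6 fits without 1 library: Syt5, Syt17, Stx1a, Vamp2 and Syn2 among those that rose, and Snap23, Vamp3, Cplx3, Unc13c and Sv2c among those that fell. For Cplx3, a member only through Input, that is in part a product of the member rule. The count that rose was 6 without IP replicate 2 and 5 without Input replicate 2. The count that fell was 6 without IP replicate 1, 6 without IP replicate 2, 5 without Input replicate 2 and 5 without Input replicate 3. Without both libraries of replicate 2, only 1 gene rose and 3 fell, and without those of replicate 3, 6 rose. Without those of replicate 1, more genes rose than in the full fit. Fits on fewer libraries have less power for every gene. The shares of all genes called in these fits are not given here, so the counts are no result about the members. In bulk samples, fewer cells of a type and less RNA per cell cannot be told apart.

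**Figure D1:**
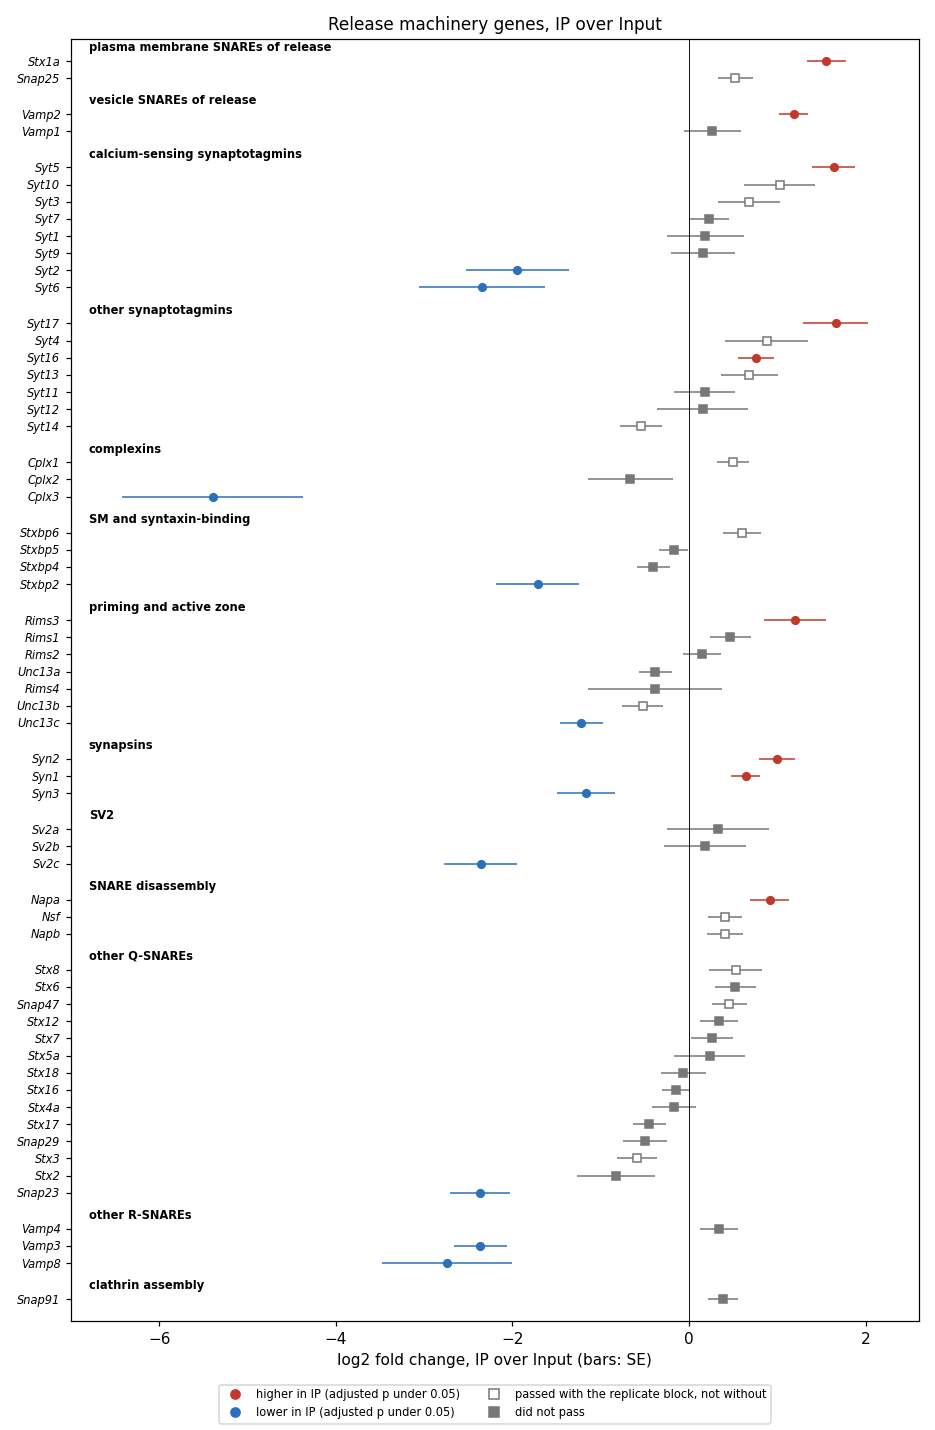
Log2 fold change of IP over Input for the genes described, grouped by role, with bars for the SE of the fit; red and blue circles passed the edgeR test, open squares missed it and passed with the replicate block and grey squares did not pass. Values run from -5.39 for Cplx3, which entered only through its Input libraries, to 1.66 for Syt17, and most roles hold genes on both sides of 0.

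Of the core SNAREs of release, Snap25 and Vamp2 were the most abundant members, and Vamp2 and Stx1a rose. Per kilobase of annotated exon, Snap25 averaged 2585 ± 591 CPM in IP, against 1798 ± 210 CPM in Input (SD, n = 3 each), and Vamp2 1044 ± 56.2 CPM in IP, against 459 ± 56.5 CPM in Input. They ranked first and second of 62 in both groups, before Cplx1 and Syn1. Vamp1 ranked 24 in IP and 23 in Input, and Stx1a ranked 29 in IP and 40 in Input. Vamp2, the vesicle SNARE of most forebrain synapses, had 3749, 4174 and 4003 CPM in IP replicates 1, 2 and 3, and 1501, 1862 and 1884 CPM in Input replicates 1, 2 and 3. Every IP value lay above every Input value, and its log2 fold change was 1.18 ± 0.16 (SE; edgeR adjusted p = 0.00175). Vamp1, the paralogue known from brainstem and spinal cord, had 334, 225 and 574 CPM in IP and 302, 259 and 383 CPM in Input, which overlap, and its log2 fold change, 0.26 ± 0.32, missed the threshold (edgeR adjusted p = 0.597).

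Stx1a encodes a plasma membrane syntaxin of release. Stx1a had 69.0, 77.9 and 62.4 CPM in IP and 18.7, 25.2 and 27.2 CPM in Input, with no overlap, and rose by log2 1.56 ± 0.22 (edgeR adjusted p = 0.00203). Snap25 had 13353, 17953 and 21348 CPM in IP and 11219, 11562 and 13840 CPM in Input. IP replicate 1 lay below Input replicate 3, and the log2 fold change, 0.52, missed the threshold (edgeR adjusted p = 0.0848), though it passed with the replicate block (edgeR adjusted p = 0.00585).

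Among the 8 calcium-sensing synaptotagmins, Syt5 rose and Syt2 and Syt6 fell. Syt1, the fast calcium sensor of forebrain synapses, was the most abundant, with 1898, 857 and 812 CPM in IP and 1744, 719 and 672 CPM in Input. Its replicate 1 was high in both groups, and its log2 fold change, 0.19 ± 0.44, missed the threshold (edgeR adjusted p = 0.796). Syt2, the fast sensor of many caudal synapses, had 6.47, 1.45 and 8.87 CPM in IP and 26.2, 13.9 and 24.5 CPM in Input. All 3 IP values lay below the Input values, and Syt2 fell by 1.95 ± 0.58 on the log2 scale (edgeR adjusted p = 0.0399), but its edgeR adjusted p was 0.0802 without IP replicate 1, 0.0826 without Input replicate 1, 0.0546 without Input replicate 2 and 0.0765 without Input replicate 3.

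Syt5, another calcium-binding family member, had 195, 120 and 113 CPM in IP and 46.8, 41.5 and 48.9 CPM in Input. The groups were well apart, and Syt5 rose by log2 1.64 ± 0.24 (edgeR adjusted p = 0.00265). Per exon length it made up 9.14 ± 0.373% of all synaptotagmin signal in IP and 4.38 ± 1.64% in Input (SD, n = 3 each). Syt6 had 4.95, 4.78 and 31.2 CPM in IP and 54.1, 51.6 and 102 CPM in Input, highest in replicate 3 of each group. It fell by 2.34 ± 0.71 on the log2 scale (edgeR adjusted p = 0.0420), with an edgeR adjusted p of 0.0967 without IP replicate 1, 0.107 without IP replicate 2, 0.0687 without Input replicate 2 and 0.102 without Input replicate 3. Syt7, the high-affinity sensor of asynchronous release, had 752, 540 and 438 CPM in IP and 561, 497 and 419 CPM in Input. Its log2 fold change, 0.23, missed the threshold (edgeR adjusted p = 0.5095). Syt3 and Syt10 had log2 fold changes of 0.68 and 1.03 and passed with the replicate block (edgeR adjusted p = 0.0211 and 0.0485); Syt10 also passed by DESeq2 (adjusted p = 0.0447).

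Of the 7 other synaptotagmins, Syt17 and Syt16 rose and none fell, although Syt14 fell with the replicate block (edgeR adjusted p = 0.0426). Syt17, which lacks the membrane-spanning segment of its relatives, had 60.9, 104 and 58.2 CPM in IP and 23.5, 33.5 and 13.5 CPM in Input. Its lowest IP value was above its highest Input value, and it rose by log2 1.66 ± 0.36 (edgeR adjusted p = 0.0122). Syt16 had 43.2, 56.6 and 53.0 CPM in IP and 27.7, 33.1 and 29.5 CPM in Input, a log2 fold change of 0.76 ± 0.20 (edgeR adjusted p = 0.0247). That call ended without IP replicate 2 or 3 and without Input replicate 1 or 2 (edgeR adjusted p = 0.1001, 0.0825, 0.0600 and 0.0593), and with upper-quartile factors or library totals (edgeR adjusted p = 0.0505 and 0.0555). Syt4 and Syt13, which do not act as calcium sensors in the way of Syt1, had log2 fold changes of 0.88 and 0.69 and passed with the block (edgeR adjusted p = 0.000768 and 0.00435). For Syt4, 14.5% of its exon length overlaps a gene on the other strand, and the strand setting of the counts is not given in the sources used here.

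Of the complexins, only Cplx3 passed without the block. Cplx1, the complexin of many fast brainstem and thalamic synapses, had 1239, 884 and 1228 CPM in IP and 800, 752 and 819 CPM in Input, with no overlap. At 0.50 ± 0.18 its log2 fold change missed the threshold (edgeR adjusted p = 0.0761) and passed with the block (edgeR adjusted p = 0.0159). Cplx2, the main forebrain complexin, had 153, 187 and 317 CPM in IP and 154, 261 and 626 CPM in Input, with the highest value in Input replicate 3. At -0.66 its log2 fold change missed the threshold (edgeR adjusted p = 0.351). Without Input replicate 3, the library with high cortical and striatal markers, the log2 fold change was 0.09 (edgeR adjusted p = 0.880). The part of those markers in the Cplx2 values was not tested. Cplx3, known from retinal ribbon synapses, had 1, 1 and 8 reads in IP and 63, 189 and 131 reads in Input, and a fitted log2 fold change of -5.39 ± 1.03 (edgeR adjusted p = 0.00704). Because it entered only through its Input libraries, this p-value is no independent support for a fall.

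Among the syntaxin-binding proteins, Stxbp2 fell. Stxbp2 (Munc18-2), the form of non-neuronal secretory cells, had 5.94, 5.93 and 2.65 CPM in IP and 9.55, 13.1 and 25.001 CPM in Input. It fell by 1.72 ± 0.47 on the log2 scale (edgeR adjusted p = 0.0278), and without Input replicate 3 by 1.22 (edgeR adjusted p = 0.0692); the call also ended without IP replicate 2, IP replicate 3 or Input replicate 2 (edgeR adjusted p = 0.0631, 0.0782 and 0.0571). Stxbp6 (amisyn) had a log2 fold change of 0.61 and passed with the block (edgeR adjusted p = 0.0120), by DESeq2 (adjusted p = 0.0456) and without IP replicate 3 (edgeR adjusted p = 0.0344), and Stxbp4 and Stxbp5 (tomosyn) did not pass.

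In the priming group of 7 genes, Rims3 rose and Unc13c fell. Rims3, a short RIM form without the N-terminal domains, had 56.6, 51.4 and 45.7 CPM in IP and 29.0, 27.2 and 10.7 CPM in Input. The groups did not overlap and it rose by log2 1.20 ± 0.35 (edgeR adjusted p = 0.0368), but its edgeR adjusted p was 0.0834, 0.0878 and 0.0655 without IP replicate 1, 2 or 3, and 0.0612 without Input replicate 2. Without Input replicate 3, where thalamic markers were low, its log2 fold change was 0.88 and it still passed (edgeR adjusted p = 0.0206). The part of those markers in the Rims3 values was not tested. Unc13c (Munc13-3), best known from cerebellum, had 47.2, 63.2 and 88.0 CPM in IP and 164, 141 and 156 CPM in Input, and fell by 1.22 ± 0.24 (edgeR adjusted p = 0.00824). Unc13a (Munc13-1), the main priming factor of excitatory forebrain synapses, had 88.8, 92.9 and 66.0 CPM in IP and 107, 114 and 102 CPM in Input, with no overlap but no call (log2 fold change -0.38, edgeR adjusted p = 0.176). Unc13b had a log2 fold change of -0.53 and passed with the block (edgeR adjusted p = 0.0454). Rims1 and Rims2, the long RIM forms, had log2 fold changes of 0.47 and 0.15 that did not pass.

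All 3 synapsins passed, Syn1 and Syn2 upwards and Syn3 downwards. Syn1 had 1009, 1034 and 852 CPM in IP and 584, 656 and 616 CPM in Input, and rose by log2 0.64 ± 0.16 (edgeR adjusted p = 0.0203). Syn2 had 575, 712 and 457 CPM in IP and 299, 322 and 254 CPM in Input, and rose by log2 0.99 ± 0.21 (edgeR adjusted p = 0.00997). For both genes every IP value lay above every Input value, but for Syn1 the edgeR adjusted p was 0.0831 without IP replicate 2 and 0.0649 without Input replicate 2. Syn3, the synapsin known mainly from developing neurons, had 22.3, 27.1 and 46.7 CPM in IP and 54.2, 65.8 and 95.5 CPM in Input, and fell by 1.16 ± 0.33 (edgeR adjusted p = 0.0307). Its edgeR adjusted p was 0.0838, 0.109, 0.0666 and 0.0798 without IP replicate 1, IP replicate 2, Input replicate 2 and Input replicate 3, and 14.1% of its exon length overlaps Timp3 on the other strand. Per exon length, Syn3 was 0.720 ± 0.385% of the synapsin signal in IP and 2.49 ± 0.764% in Input (SD, n = 3 each).

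Of the SV2 glycoproteins of the vesicle membrane, only Sv2c passed. Sv2c, abundant in basal ganglia, had 6.92, 2.92 and 6.01 CPM in IP and 29.0, 16.5 and 36.0 CPM in Input, all Input values above IP, and fell by 2.36 ± 0.42 (edgeR adjusted p = 0.00529). It fell by 2.09 without Input replicate 3. Sv2a had 449, 152 and 149 CPM in IP and 369, 141 and 87.3 CPM in Input, and Sv2b 394, 203 and 176 CPM in IP and 401, 126 and 156 CPM in Input. Replicate 1 was high in both groups for both genes, the groups overlapped, and the log2 fold changes of 0.33 and 0.18 did not pass.

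Of the disassembly factors, Napa rose and Napb and Nsf passed with the replicate block (edgeR adjusted p = 0.0235 and 0.0202). Napa (alpha-SNAP) had 195, 136 and 160 CPM in IP and 106, 84.7 and 70.4 CPM in Input, with no overlap, and rose by log2 0.91 ± 0.22 (edgeR adjusted p = 0.0171). Without Input replicate 2 its adjusted p was 0.0619. Napb (beta-SNAP, the brain form) had 1427, 1022 and 1182 CPM in IP and 1138, 801 and 797 CPM in Input. Nsf, the ATPase, had 1446, 1256 and 1111 CPM in IP and 1152, 917 and 801 CPM in Input. Snap91, the clathrin assembly protein, differed by log2 0.38, which missed the threshold (edgeR adjusted p = 0.138).

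Most SNAREs that serve other membranes did not pass, and those that passed without the replicate block fell. Of 14 other Q-SNAREs, 1 fell and 0 rose (2 fell and 2 rose with the replicate block), and the median log2 fold change was -0.11. Over all genes tested, 15.6% fell and 9.6% rose (19.2% and 15.9% with the block), so 1 fall of 14 is not above the background. Snap23, the SNAP25 homologue of non-neuronal cells and postsynaptic membranes, had 2.45, 4.72 and 3.02 CPM in IP and 17.0, 18.5 and 17.1 CPM in Input, and fell by 2.37 ± 0.34 (edgeR adjusted p = 0.00219). Of 3 other R-SNAREs, 2 fell. Vamp3 (cellubrevin), a widespread form present in astrocytes, had 16.2, 7.34 and 10.5 CPM in IP and 61.8, 56.9 and 56.5 CPM in Input, and fell by 2.36 ± 0.30 (edgeR adjusted p = 0.00131). For both genes the groups were far apart.

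Vamp8 (endobrevin) had 1.01, 1.41 and 0.441 CPM in IP and 2.001, 5.69 and 11.5 CPM in Input, and fell by 2.74 ± 0.73 (edgeR adjusted p = 0.0261). The call held without Input replicate 1 and ended without IP replicate 1, 2 or 3 and Input replicate 2 or 3 (edgeR adjusted p = 0.0660, 0.0525, 0.0762, 0.0618 and 0.0716), and limma-voom gave an adjusted p of 0.0603. Stx3, a syntaxin of ribbon synapses and epithelia, had a log2 fold change of -0.59 and fell with the block (edgeR adjusted p = 0.0475), and Stx8 and Snap47 rose with it (edgeR adjusted p = 0.0498 and 0.0476). Without the block, Stx8 also passed without Input replicate 3 (edgeR adjusted p = 0.0371) and Snap47 without both libraries of replicate 1 (edgeR adjusted p = 0.0448). Markers of astrocytes, oligodendrocytes, microglia and GABAergic neurons fell in the same libraries, with median log2 fold changes of -4.32, -4.29, -4.36 and -3.54, and their part in the falls of Snap23, Vamp3, Vamp8, Stxbp2, Syt2, Syt6, Sv2c, Syn3 and Unc13c was not tested.

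**Figure D2:**
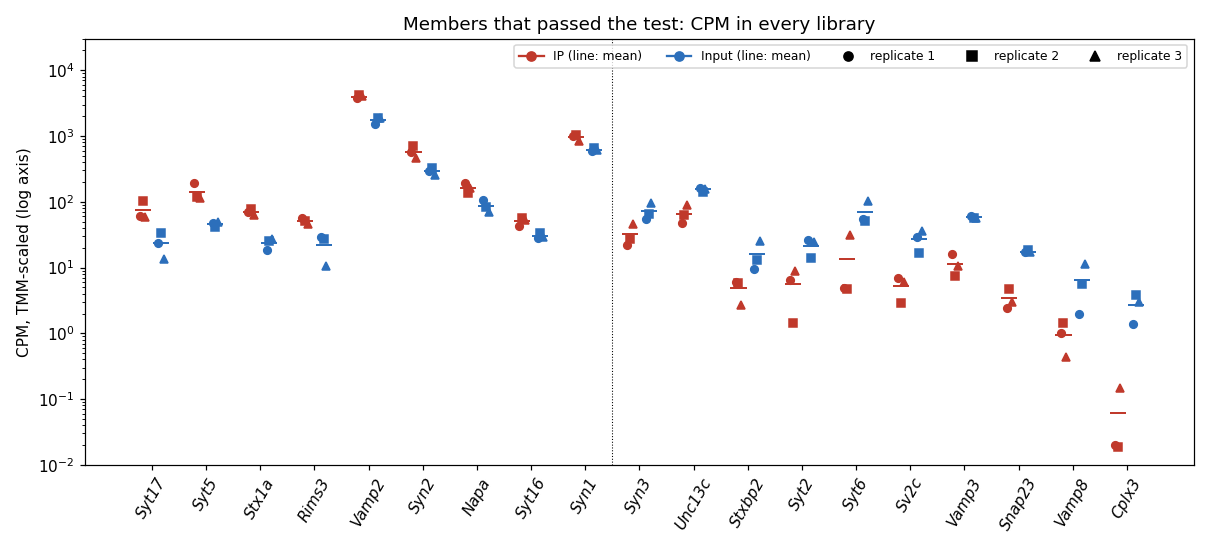
TMM-scaled CPM (log axis) of genes that passed, in each library, with IP in red left of Input in blue, 1 symbol per replicate and a line at each mean. The genes left of the dotted line have every IP value above every Input value and the 10 right of it the opposite.

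Ratios between related genes within a library do not depend on scaling, and 12 pairs were compared. With 3 libraries against 3 the smallest p an exact two-sided permutation test can give is 0.1, so no pair could pass 0.05. For 6 pairs the IP and Input ratios did not overlap (exact p = 0.1, 0.2 adjusted over the 12 pairs). Groups without overlap were common among single genes, at 19.9% of all genes for IP higher and 25% for IP lower. The share over arbitrary pairs of genes is not given here, so the 6 pairs are a description. The Syn2/Syn1 read ratio was 0.570, 0.689 and 0.536 in IP and 0.511, 0.491 and 0.413 in Input, a log2 difference of 0.34. It was higher in IP for each replicate number.

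The Napb/Napa ratio was 7.33, 7.49 and 7.38 in IP and 10.8, 9.46 and 11.3 in Input, a log2 difference of -0.50, with IP values that were nearly the same. The Syt2/Syt1, Sv2c/Sv2a and Snap23/Snap25 ratios were lower in IP, with log2 differences of -2.46, -2.77 and -2.92. Vamp1/Vamp2 was lower and Cplx1/Cplx2 higher in IP within each replicate number, with mean log2 differences of -1.01 and 0.97, but the groups overlapped (exact p = 0.2 and 0.3). For Vamp1/Vamp2 the overlap came from IP replicate 3 at 0.143 against Input replicate 2 at 0.139. Syt7/Syt1, Unc13b/Unc13a, Rims2/Rims1 and Sv2b/Sv2a differed by -0.01, -0.16, -0.29 and -0.10 on the log2 scale, with groups that overlapped.

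**Figure D3:**
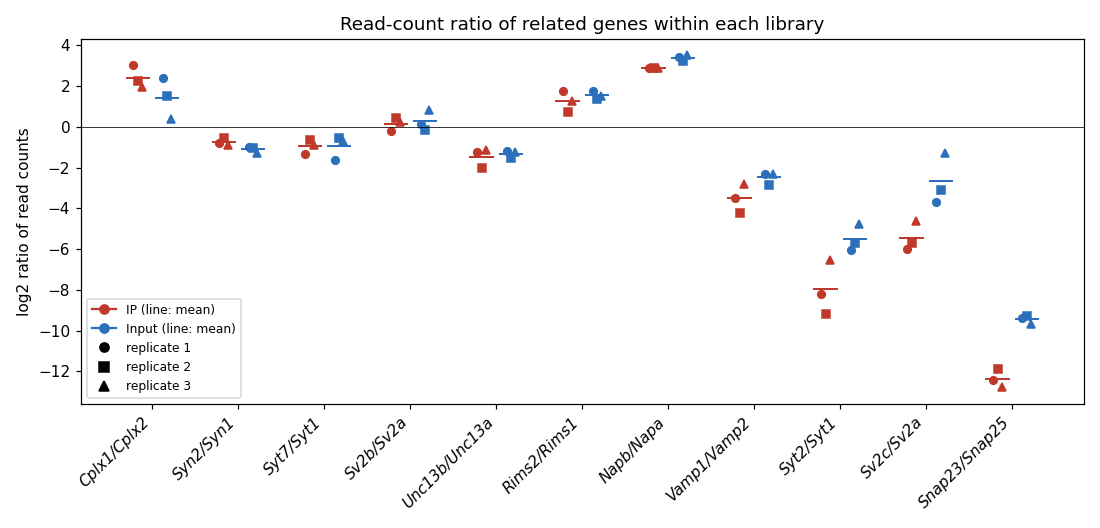
Log2 ratio of read counts of related genes within each library, IP in red left of Input in blue, with 1 symbol per replicate and a line at each mean. IP and Input do not overlap for Syn2/Syn1, Napb/Napa, Syt2/Syt1, Sv2c/Sv2a and Snap23/Snap25.

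Levels in replicate 1 set several members apart in IP and Input alike. At least 1.5 times the mean of replicates 2 and 3 in both groups was reached by 7 members (11.3%, against 8.34% of the 14011 genes at 1 CPM in 3 libraries), a threshold chosen after the values were seen. These were Sv2a (2.99 times in IP and 3.23 times in Input), Syt4 (2.61 and 2.41), Syt1 (2.28 and 2.51), Sv2b (2.08 and 2.85), Syt12 (2.04 and 1.62), Syt3 (2.03 and 1.73) and Syt11 (1.76 and 2.06). All 7 belong to the 18 synaptotagmins and SV2 proteins, whose medians were 1.54 in IP and 1.57 in Input, and 0 belong to the other 44 members, whose medians were 0.960 in IP and 0.9997 in Input. Most synaptotagmins and all SV2 proteins enter the endoplasmic reticulum membrane while they are made, whereas syntaxins and VAMPs are anchored by their tail afterwards and SNAP25, complexins and synapsins have no membrane-spanning segment. Whether this bears on the levels in replicate 1 was not tested.

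A set of 9 membrane proteins of the pathway that span the membrane several times (Syp, Sypl, Sypl2, Synpr, Syngr1, Syngr3, Scamp1, Scamp5 and Svop), gathered after the values were seen, had medians of 1.70 in IP and 1.57 in Input, with 4 of 9 past 1.5 in both. Over the 14011 genes at 1 CPM in 3 libraries, the medians were 0.988 in IP and 0.994 in Input. Because the set was gathered that late, it describes these values and tests nothing. Slc17a6 had 6489 CPM in IP replicate 1 against 2193 and 2200 CPM in IP replicates 2 and 3, and in Input it had 3153 CPM in replicate 1, with 875 and 477 CPM in replicates 2 and 3. The labels give lane 3 for replicate 1 and lanes 8 and 4 for replicates 2 and 3, so lane, replicate number and sample cannot be told apart. Across the 62 members, deviations from the group mean correlated between IP and Input of the same number with r = 0.60, 0.65 and 0.37 for replicates 1, 2 and 3, as a description over genes of shared libraries. For Sv2a, Sv2b, Syt1 and Syt11, the log2 fold changes of 0.33, 0.18, 0.19 and 0.18 missed the threshold with the block too (edgeR adjusted p = 0.0824, 0.205, 0.188 and 0.235).

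**Figure D4:**
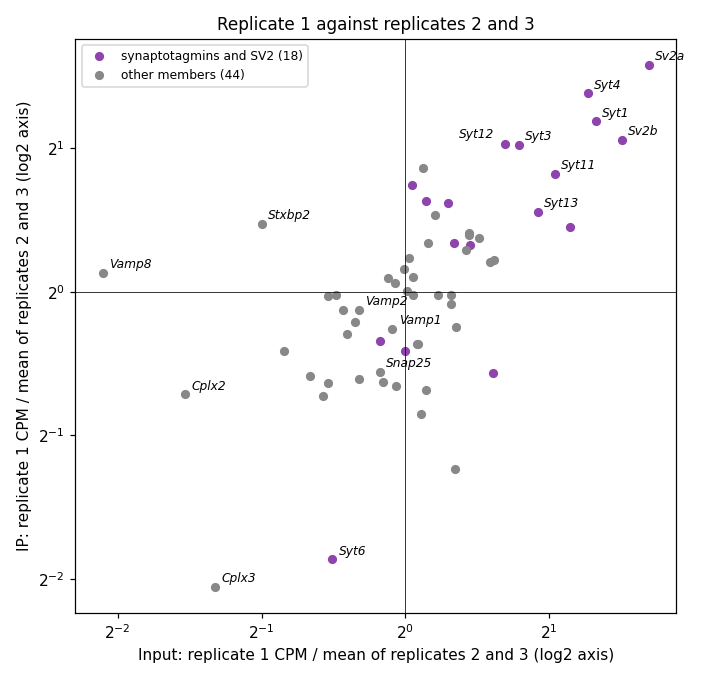
Level in replicate 1 divided by the mean of replicates 2 and 3, in IP (vertical) against Input (horizontal), on log2 axes, with 1 point per member. Of the 18 synaptotagmins and SV2 proteins (purple), 7 pass 1.5 on both axes, up to Sv2a at 2.99 times in IP and 3.23 times in Input, while Syt6 lies lowest at 0.275 times in IP and 0.704 times in Input.

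Promoter windows from RefSeq (GRCm38.p6) matched 48 of the 62 genes, in 61 windows. The 250 bases before the start are printed for the 6 called genes with a single window that overlaps no annotated exon, Stx1a and Rims3 among those that rose and Snap23, Cplx3, Unc13c and Sv2c among those that fell, so that genes that moved in opposite directions can be read side by side. Capitals mark the GC box GGGCGG, bound by SP family factors, the E-box CACGTG and the cyclic AMP response element TGACGTCA, each searched on both strands, and none of these motifs overlapped another in these windows.
Stx1a, chr5:135023232-135023481, plus strand: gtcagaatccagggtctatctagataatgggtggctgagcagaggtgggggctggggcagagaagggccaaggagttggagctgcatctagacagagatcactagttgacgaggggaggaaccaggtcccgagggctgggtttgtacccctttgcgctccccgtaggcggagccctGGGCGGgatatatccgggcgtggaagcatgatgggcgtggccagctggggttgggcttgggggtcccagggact
Rims3, chr4:120854549-120854798, plus strand: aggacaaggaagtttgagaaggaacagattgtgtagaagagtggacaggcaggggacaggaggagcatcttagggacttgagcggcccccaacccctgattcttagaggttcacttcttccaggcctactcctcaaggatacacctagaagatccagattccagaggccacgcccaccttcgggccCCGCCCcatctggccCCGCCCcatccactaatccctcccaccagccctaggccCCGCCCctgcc
Snap23, chr2:120567421-120567670, plus strand: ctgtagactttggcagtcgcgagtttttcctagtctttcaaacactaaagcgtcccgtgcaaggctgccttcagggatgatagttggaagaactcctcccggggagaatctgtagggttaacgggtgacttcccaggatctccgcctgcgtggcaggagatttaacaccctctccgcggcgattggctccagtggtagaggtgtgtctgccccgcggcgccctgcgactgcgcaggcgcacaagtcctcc
Cplx3, chr9:57606282-57606531, minus strand: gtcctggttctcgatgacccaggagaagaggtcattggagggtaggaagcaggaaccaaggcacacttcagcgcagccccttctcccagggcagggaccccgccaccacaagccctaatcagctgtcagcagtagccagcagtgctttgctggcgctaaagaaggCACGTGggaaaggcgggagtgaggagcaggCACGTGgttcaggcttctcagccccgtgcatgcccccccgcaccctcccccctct
Unc13c, chr9:73969038-73969287, minus strand: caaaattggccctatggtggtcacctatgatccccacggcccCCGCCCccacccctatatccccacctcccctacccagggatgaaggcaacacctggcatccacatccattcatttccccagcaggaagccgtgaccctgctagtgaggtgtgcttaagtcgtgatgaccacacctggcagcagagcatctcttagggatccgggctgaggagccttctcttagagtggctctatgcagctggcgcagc
Sv2c, chr13:96132578-96132827, minus strand: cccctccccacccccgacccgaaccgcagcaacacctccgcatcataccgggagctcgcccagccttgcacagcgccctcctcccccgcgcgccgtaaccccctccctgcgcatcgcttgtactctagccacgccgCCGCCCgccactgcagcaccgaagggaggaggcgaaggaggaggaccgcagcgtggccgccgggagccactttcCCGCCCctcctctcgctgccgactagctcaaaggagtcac

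A GC box was found in 36 of the 61 member windows (59.0%) and in 32.7% of all 32851 promoter windows in the table. It was present in Stx1a and Rims3, which rose, and in Unc13c and Sv2c, which fell. Rims3 held 3 copies, the nearest beginning 11 bases before the start. The E-box was found in 11 member windows (18.0%) and in 6.02% of all windows, and Cplx3 held 2 copies, beginning 85 and 55 bases before the start. The cyclic AMP response element was found in 1 member window, that of Syn1 (1.64%), and in 1.55% of all windows. These are matches of letters only. Some members have several windows, which can overlap, and counted by gene the GC box was found in 33 of 48 and the E-box in 10 of 48. The windows of all genes were not limited to genes expressed here, and a share over expressed genes is not given, so the differences are not read as particular to the members.

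Other genes of the release and recycling pathway, from a list of 52 that the symbols above do not cover, rose more often than they fell. The list was chosen with earlier results of these data known, so its shares are a description and no test of the pathway. Of these, 15 rose (28.8%) and 2 fell (3.85%), against 9.6% and 15.6% of all genes tested, with a median log2 fold change of 0.36. With the replicate block, 24 of the 52 rose and 6 fell, against 15.9% and 19.2% of all genes tested. Without both libraries of replicate 2, 2 rose, and 1 fell without IP replicate 2, without IP replicate 3, or without both libraries of replicate 2 or 3. The shares of all genes in those fits are not given here. Of 9 Rab3 proteins and C2-domain effectors, which link vesicles to RIM and to priming, 5 rose and 0 fell, led by Rab3b, Doc2b and Doc2a with log2 fold changes of 1.63, 1.52 and 1.33. Of 15 vesicle membrane proteins and chaperones, 4 rose and 0 fell, among them beta-synuclein (Sncb) and Svop at 1.33 and 1.29. Of 18 endocytosis genes, 4 rose and 0 fell, among them the clathrin adaptor subunits Ap2s1, Ap2m1 and Ap2a2 at 1.75, 1.56 and 0.77. The calls of Doc2a and Ap2a2 held in 4 and 3 of 6 fits without 1 library.

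Of 10 active zone scaffold genes, 2 rose and 2 fell. The liprins Ppfia4 and Ppfia2 rose by log2 1.08 and 0.62, and the call of Ppfia2 held in 2 of 6 fits without 1 library. Pclo (Piccolo), a very large scaffold protein, had 205, 196 and 183 CPM in IP and 724, 736 and 657 CPM in Input, and fell by 1.86 ± 0.16 (edgeR adjusted p = 0.000210). Bsn (Bassoon), its partner, had 226, 206 and 178 CPM in IP and 339, 337 and 306 CPM in Input, and fell by 0.68 ± 0.17 (edgeR adjusted p = 0.0190), a call that held in 3 of 6 fits without 1 library (edgeR adjusted p up to 0.0870). Both had every IP value below every Input value.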

How the data were processed

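For each of 6 libraries the authors deposited raw counts per gene, as whole numbers. STAR 2.0.0e, HTSeq and mm10 are named per the submitters' processing notes. Sources used here give neither the annotation nor the counting mode, strand setting or library kit. Groups, replicate numbers and lanes came from the titles and descriptions. The HTSeq summary rows and 1 row with no gene name were left out of library sizes. Ambiguous reads made up 1.53% to 1.92% of records in IP and 7.37% to 13.2% in Input. Alignments that were not unique made up 38.5% to 45.0% in IP and 23.6% to 27.2% in Input. Reads in no feature made up 7.65% to 7.85% in IP and 14.0% to 17.7% in Input. The part of these differences in the results was not tested. No 2 libraries of a group agreed within sampling noise.

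In edgeR 4.0.16 under R 4.3.3, genes passed filterByExpr and TMM scaling. Its two-sided quasi-likelihood test compared IP with Input, and p-values were adjusted over all 16496 genes after Benjamini and Hochberg (threshold 0.05). The code was tested on simulated data. CPM values are TMM-scaled except in the member rule, which used library totals. SE values belong to the log2 fold change of IP over Input. Levels per kilobase used the union of exons of GENCODE M21 (GRCm38, the assembly of mm10), whose isoforms need not be those in use. Ratios of counts used a prior count of 0.5.

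Deviations from the group means went together in IP and Input of the same number (r = 0.41, 0.18 and 0.22 across genes for replicates 1, 2 and 3), so the numbers, from the titles, were taken to pair the libraries. The fit without the block stayed the main one. The members, lists and pairs were chosen with earlier results of these data known. Values per library are given for the members of the pairs, a few further members and every called member; pathway genes are the up to 3 largest calls per direction in each list. Some genes, and ratios that need them, are counted in the totals but not reported here. Alternatives were other scalings and filters, DESeq2 1.42.0, limma-voom (limma 3.58.1), the replicate block and leaving out libraries. Pandas 2.3.3 and numpy 2.4.6 served for annotation.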

Additional observations from a re-analysis of the deposited data

How the results depend on the processing

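Scaling by RLE, upper-quartile factors or library totals, DESeq2, limma-voom and both other filters gave between 9 and 12 members that rose and between 9 and 10 that fell, close to the 10 and 10 of the reported fit. With the replicate block 21 members rose and 13 fell, and of the pathway genes 24 rose and 6 fell. Of all genes tested, 15.9% rose and 19.2% fell with it, and of those at 1 CPM in 3 libraries, 18.7% rose and 19.3% fell. Among the members, the block ended 0 of the 20 calls and added 14. Leaving out 1 library, or both of 1 number, moved the members that rose between 1 and 13, those that fell between 3 and 9, the pathway genes that rose between 2 and 20 and those that fell between 1 and 3. The members' median log2 fold change ranged between 0.02 and 0.35, with 0.025 without IP replicate 1 and 0.06 without Input replicate 3. The lowest counts, 1 and 3, came from 2 libraries a group. Since the shares of all genes called in fits without libraries are not given here, these counts are a description. Without a filter the median over all 22292 genes tested moved by -0.20 (log2). Of the ratios between related genes, Syt7/Syt1 ranged from -0.36 to 0.19 without 1 library, Unc13b/Unc13a from -0.32 to 0.12 and Sv2b/Sv2a from -0.32 to 0.18, so their direction is not settled; the cause was not tested. With the sign-flip test over 3 pairs the smallest exact p is 0.25. Depth limited mainly Cplx3, with 10 reads in all IP libraries together.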
